A study of Homo sapiens with 18 samples.

Results

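The genes described here are 32 genes of cholesterol synthesis, uptake and transport, chosen by symbol from 28395 genes in the RNA-seq tables. They comprise 18 enzymes of cholesterol synthesis, 5 genes of the SREBP pathway that controls them, 8 genes of transport, efflux, esterification and receptor turnover, and LPIN1, another SREBP target. The cells were 3 lines derived from K562, a human erythroleukemia cell line. The control line, V-K562, carried an expression vector without insert, B-K562 cells expressed wild-type BASP1 and G-K562 cells expressed BASP1-G2A, a mutant that cannot be myristoylated. All 3 lines were stable transfectants grown in medium with fetal calf serum, each assay had 3 libraries per line, and the spread between those libraries says nothing of how separately derived lines would vary, so BASP1 and any other difference between the lines cannot be told apart. ATAC-seq gave 117 accessible regions within 5 kb of the 32 genes, of 85549 merged regions in all.

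Cholesterol is built from acetyl-CoA through mevalonate, isoprenoid diphosphates, squalene and lanosterol. The enzymes are controlled together by the SREBP transcription factors, which are made as membrane proteins of the endoplasmic reticulum. When sterols are scarce, SCAP escorts SREBP to the Golgi, where proteases release the active factor, and when sterols are plentiful the INSIG proteins hold the complex back. Oxysterols made from excess cholesterol activate the LXR receptors, which raise the efflux pumps ABCA1 and ABCG1. BASP1 is a lipid-modified cofactor whose myristoyl group is needed for its interaction with cholesterol.

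The RNA-seq values were read counts per gene that the authors normalized and rounded, and their totals per library were 32074895 at the lowest and 33138341 at the highest. The V-K562 libraries appear in a table with B-K562 and again in a table with G-K562, where their values are 1.02 times larger (the mean ratio), and the V-K562 values given below are those of the first table. BASP1 itself had values of 7, 5 and 7 in V-K562, 6849, 6618 and 6189 in B-K562 and 9323, 12538 and 8124 in G-K562. All 8 erythroid markers examined, among them GATA1, reached a value of at least 10 in each line, and their summed value lay between 48031 and 50604 for V-K562, between 85301 and 87313 for B-K562 and between 44102 and 50099 for G-K562. Within that sum HBZ, an embryonic globin, lay between 2179 and 3283 in V-K562, between 12751 and 13104 in B-K562 and between 385 and 622 in G-K562, and the part of erythroid state in the results below was not tested. The B cell marker MS4A1 was at 0 in every library and the T cell marker CD2 reached at most 4. The monocyte gene LYZ was at 1303 to 1342, 1265 to 1402 and 3772 to 4301 in the 3 lines, in the same order, whereas CD14 reached at most 23.

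The first question was whether the cholesterol genes moved together in the BASP1 lines. In G-K562 cells 15 of the 18 synthesis enzymes were lower than in the control, 2 were higher and 1 did not pass the test, with a median log2 difference of -1.10. In B-K562 cells 10 enzymes were lower, 5 were higher and 3 did not pass, with a median of -0.33. A change was called where the adjusted p-value did not exceed 0.05 (limma-trend on log2(value + 1), Benjamini-Hochberg adjustment over all genes tested). Over all the listed genes, 18 of the 30 tested were lower and 8 higher in B-K562 against V-K562, where 37.2% of all genes tested were lower and 38.6% higher. In G-K562 against V-K562 20 of 32 were lower and 10 higher, where 33.3% and 33.5% of all genes were. The median of all genes tested was 0.01 in B-K562 and 0.00 in G-K562. At least a 2-fold fall was found for 6 of 30 genes in B-K562 (14.1% of all genes tested) and for 13 of 32 in G-K562 (10.3% of all genes tested). Rises of at least 2-fold were made by 3 of 32 in G-K562 (8.81% of all genes), and the 8 genes that were higher in B-K562 rose by less, where 6.46% of all genes rose by 2-fold or more. ABCA1 and ABCG1 passed the filter on low values through the G-K562 libraries, so they had to differ there, and without them the counts in G-K562 were 20 lower and 8 higher of 30, with NPC2 as the single rise of at least 2-fold.

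**Figure D1:**
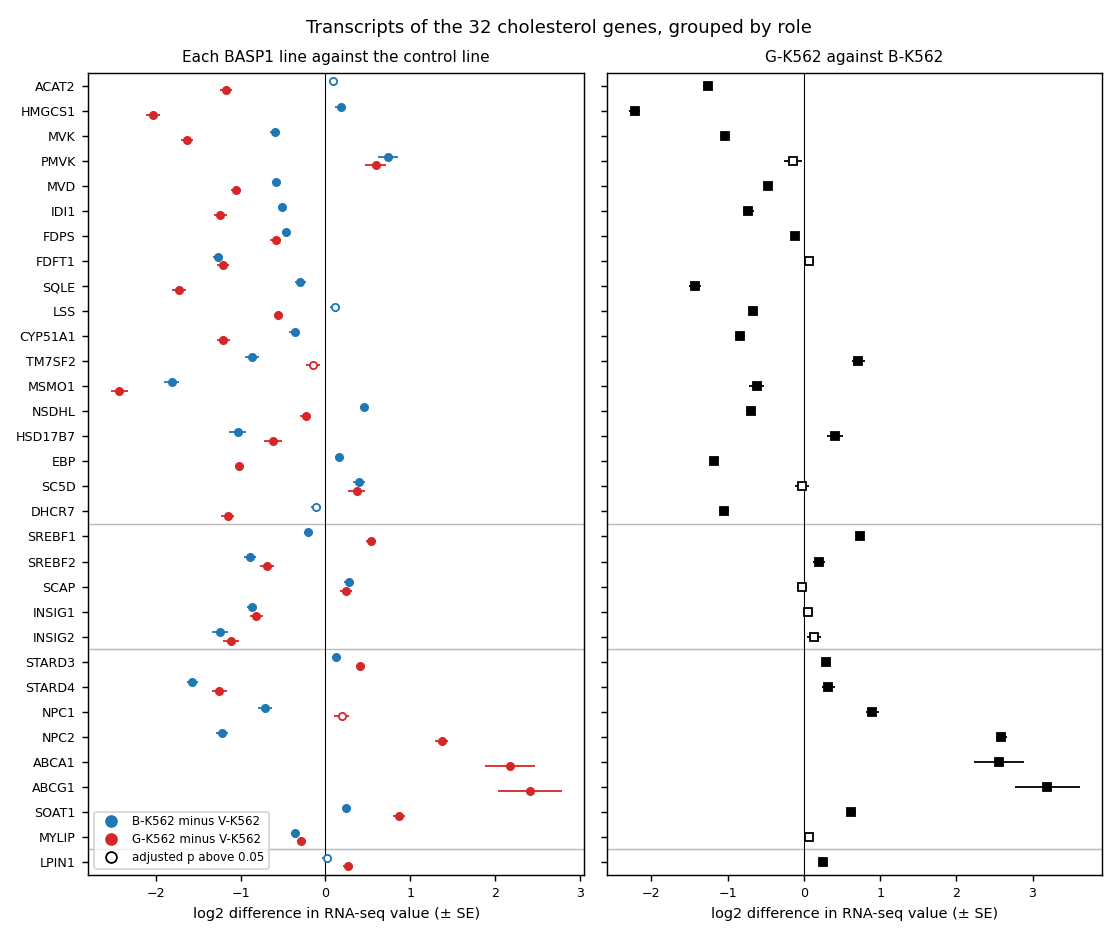
Log2 difference in RNA-seq value (x axis, ± SE) for each of the 32 genes (y axis, separated by lines into enzymes, SREBP pathway control, transport and LPIN1). On the left each BASP1 line is set against V-K562 (3 libraries each), on the right G-K562 against B-K562, and open symbols mark adjusted p-values above 0.05. In G-K562 the enzymes run from -2.43 for MSMO1 to 0.59 for PMVK, and ABCA1 and ABCG1 stand at 2.18 and 2.41.

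Among the enzymes, HMGCS1 showed the widest gap between the BASP1 lines. HMGCS1 (Entrez 3157, chromosome 5, 43287470 to 43313512, GRCh38), which makes the precursor of mevalonate, had values of 11749, 13988 and 14230 in V-K562, 15331, 14571 and 15244 in B-K562 and 3306, 3574 and 3017 in G-K562. The G-K562 libraries lay far below all the others, and the B-K562 libraries just above the V-K562 ones. HMGCS1 fell 4.10-fold in G-K562 (log2 difference -2.04 ± 0.08 SE, adjusted p = 3.9e-09). In B-K562 its difference was 0.18 ± 0.07 (SE, adjusted p = 0.023), a call that was lost when V-K562 replicate 1 (adjusted p = 0.054), B-K562 replicate 1 (0.076) or B-K562 replicate 3 (0.072) was left out. The 57 genes tested within 10 Mb of HMGCS1 had a median log2 difference of 0.32 in B-K562 and -0.21 in G-K562. ACAT2 (Entrez 39), the thiolase that joins acetyl-CoA units, was at 4190, 4272 and 4106 in V-K562, 4564, 4336 and 4465 in B-K562 and 1825, 2088 and 1764 in G-K562. It fell 2.26-fold in G-K562, and its difference in B-K562 was 0.09 (adjusted p = 0.085). Exons of ACAT2 overlap those of TCP1 on the other strand over 454 bases, and whether the counting used strand was not given in the sources used here.

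The mevalonate kinase gene MVK (Entrez 4598) was at 1376, 1402 and 1498 in V-K562, 993, 918 and 925 in B-K562 and 451, 492 and 458 in G-K562. The 3 lines did not overlap, with the control highest and G-K562 lowest. The fall was 1.51-fold in B-K562 and 3.10-fold in G-K562, though exons of MVK overlap MMAB on the other strand over 201 bases. MVD (Entrez 4597), the mevalonate diphosphate decarboxylase, gave 5061, 5370 and 5737, then 3561, 3603 and 3616, then 2722, 2664 and 2524 in the same order of lines. IDI1 (Entrez 3422), the isopentenyl diphosphate isomerase, gave 5404, 5186 and 5243, then 3905, 3480 and 3719, then 2198, 2588 and 2055. Both followed the order seen for MVK, and MVD fell 2.08-fold and IDI1 2.36-fold in G-K562. IDI1 lies at an end of chromosome 10 where the 33 genes tested within 10 Mb had a median log2 difference of -0.65 in G-K562, against -1.24 for IDI1. PMVK, which phosphorylates the product of MVK, moved the other way and rose by 0.73 in B-K562 and 0.59 in G-K562 on the log2 scale.

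From farnesyl diphosphate to lanosterol, FDFT1 fell in both BASP1 lines and SQLE fell further in G-K562. FDFT1 (Entrez 2222), the squalene synthase, had values of 18567, 19352 and 20868 in V-K562, 8436, 7871 and 8023 in B-K562 and 8436, 9467 and 8093 in G-K562. Both BASP1 lines were below the control and overlapped each other. FDFT1 fell 2.41-fold in B-K562 (log2 difference -1.27 ± 0.05 SE, adjusted p = 1.5e-10) and 2.30-fold in G-K562 (-1.20 ± 0.07 SE, adjusted p = 6.2e-08). SQLE (Entrez 6713), the squalene epoxidase, was at 7746, 9066 and 9482 in V-K562, 6997, 7025 and 7337 in B-K562 and 2671, 2928 and 2488 in G-K562. Most of its fall was in G-K562, by 3.30-fold against 1.23-fold in B-K562. FDPS, the farnesyl diphosphate synthase, fell by 0.47 and 0.59 on the log2 scale in B-K562 and G-K562, and LSS, the lanosterol synthase, fell by 0.56 in G-K562 while its difference in B-K562 was 0.11 (adjusted p = 0.064).

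Among the enzymes that turn lanosterol into cholesterol, MSMO1 fell furthest in both lines. MSMO1 (Entrez 6307, chromosome 4, 165327666 to 165343164), a sterol demethylase component, gave 2556, 2883 and 3268 in V-K562, 893, 729 and 849 in B-K562 and 554, 597 and 486 in G-K562. Each line was separate from the other 2. The fall was 3.52-fold in B-K562 (log2 difference -1.81 ± 0.09 SE, adjusted p = 6.5e-10) and 5.39-fold in G-K562 (-2.43 ± 0.10 SE, adjusted p = 3.7e-09). Its neighbours within 10 Mb had a median log2 difference of -0.31 over 35 genes in B-K562 and -0.57 over 37 genes in G-K562. HSD17B7 (Entrez 51478), which reduces the sterol ketone, was at 408, 385 and 493, then 192, 208 and 223, then 282, 268 and 293, and so was lowest in B-K562. TM7SF2, a sterol reductase, shared that order: it fell by 0.86 on the log2 scale in B-K562, and its difference in G-K562 was -0.15 (adjusted p = 0.12).

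CYP51A1 (Entrez 1595), the lanosterol demethylase, gave 4090, 4864 and 4843 in V-K562, 3607, 3439 and 3641 in B-K562 and 2046, 2109 and 1924 in G-K562. EBP (Entrez 10682), the sterol isomerase, gave 2978, 2945 and 2883, then 3226, 3222 and 3383, then 1441, 1534 and 1452. DHCR7 (Entrez 1717), which makes the last reduction, gave 5006, 5466 and 5801, then 4842, 4956 and 5274, then 2599, 2601 and 2245. For all 3 genes the G-K562 libraries were separate and low, with falls of 2.30-fold, 2.02-fold and 2.22-fold. In B-K562 CYP51A1 fell by 0.36 on the log2 scale, EBP rose by 0.16, and the difference of DHCR7 was -0.11 (adjusted p = 0.10). The rise of EBP was 0.01 (adjusted p = 0.79) after quantile normalization. EBP and NSDHL lie on the X chromosome. NSDHL, a sterol dehydrogenase, rose by 0.45 in B-K562 and fell by 0.23 in G-K562, and the 122 genes tested near EBP had a median of -0.34 in G-K562. SC5D, the sterol desaturase, rose by 0.39 in B-K562 and 0.37 in G-K562. The genes tested within 10 Mb of SC5D had medians of 0.27 (123 genes) in B-K562 and 0.38 (130 genes) in G-K562.

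**Figure D2:**
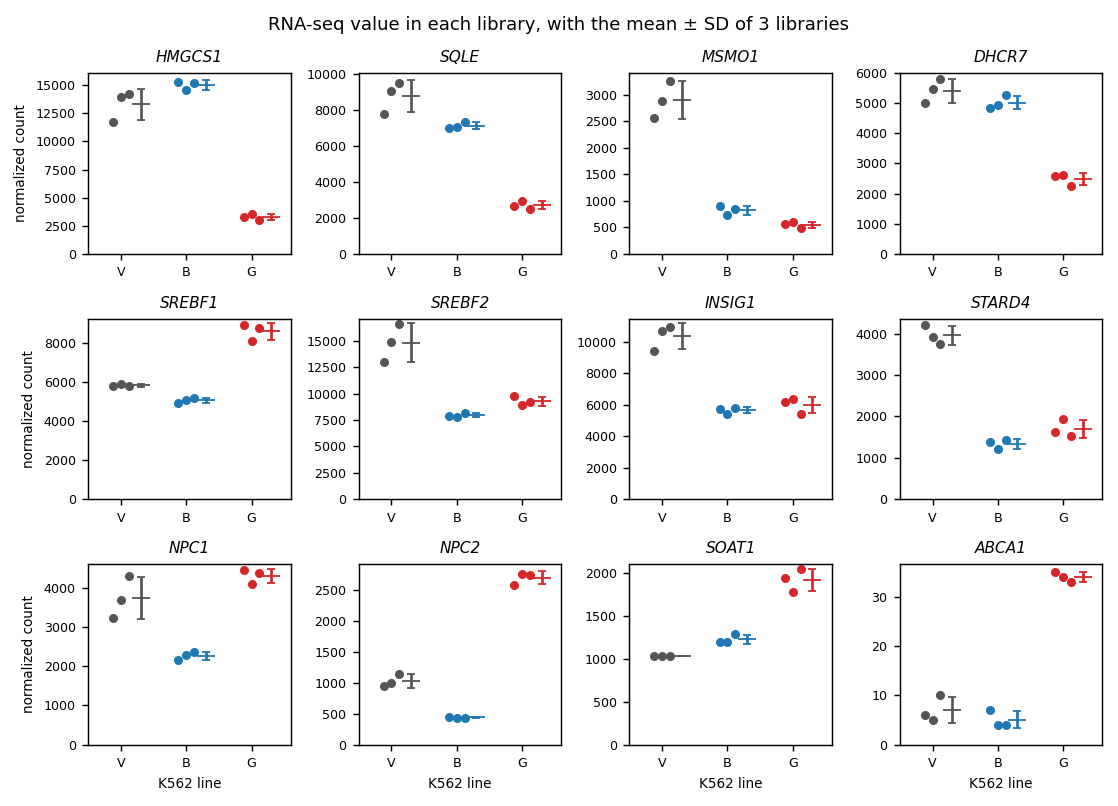
Normalized count (y axis, from 0) in the 3 libraries of each line (x axis, V-K562, then B-K562, then G-K562) for 12 of the genes, with the mean ± SD beside the points. HMGCS1, SQLE and DHCR7 are lowest in G-K562, SREBF2, INSIG1 and STARD4 are low in both BASP1 lines, and NPC2 is lowest in B-K562 and highest in G-K562.

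Of the genes that control the SREBP pathway, SREBF2, INSIG1 and INSIG2 fell in both BASP1 lines. SREBF2 (Entrez 6721, chromosome 22, 41833079 to 41907308), which encodes the SREBP form that favours cholesterol genes, was at 12963, 14886 and 16647 in V-K562, 7898, 7802 and 8162 in B-K562 and 9737, 8891 and 9232 in G-K562. It fell by 0.89 ± 0.07 (SE) on the log2 scale in B-K562 (adjusted p = 7.8e-08) and by 0.69 ± 0.08 (SE) in G-K562 (adjusted p = 1.9e-05). INSIG1 (Entrez 3638), a sterol-sensing retention protein and itself an SREBP target, gave 9410, 10695 and 10931, then 5749, 5426 and 5767, then 6147, 6366 and 5394. Its paralog INSIG2 (Entrez 51141) gave 645, 643 and 549, then 266, 232 and 275, then 305, 274 and 279. For both genes the BASP1 lines overlapped each other below the control, with falls of 1.83-fold and 1.76-fold for INSIG1 and of 2.37-fold and 2.17-fold for INSIG2.

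SREBF1 (Entrez 6720), whose products favour fatty acid genes and which is also induced by LXR, took another course. It was at 5815, 5908 and 5801 in V-K562, 4928, 5111 and 5179 in B-K562 and 8958, 8105 and 8779 in G-K562. It fell by 0.20 ± 0.04 (SE) on the log2 scale in B-K562 (adjusted p = 7.2e-04) and rose by 0.53 ± 0.06 (SE) in G-K562 (adjusted p = 6e-06). SCAP (Entrez 22937), the escort protein, was at 3748, 4112 and 4330, then 4739, 4888 and 5071, then 5273, 4488 and 4908. SCAP rose by 0.27 in B-K562 and 0.24 in G-K562, and the second call was lost without G-K562 replicate 1 (adjusted p = 0.068). The SREBF1 and SREBF2 values are for whole genes and do not separate the transcript forms of SREBF1, whose exons overlap RAI1 on the other strand over 105 bases.

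Among the transport genes, NPC2 and the efflux pumps were high in G-K562. NPC2 (Entrez 10577, chromosome 14, 74479940 to 74493381), the soluble lysosomal cholesterol carrier, gave 942, 1003 and 1151 in V-K562, 451, 438 and 434 in B-K562 and 2584, 2774 and 2754 in G-K562. The 3 lines were separate, in the order B-K562, V-K562, G-K562. NPC2 fell 2.33-fold in B-K562 (log2 difference -1.22 ± 0.08 SE, adjusted p = 5.8e-09) and rose 2.58-fold in G-K562 (1.37 ± 0.08 SE, adjusted p = 4.8e-08). The 106 genes tested within 10 Mb of it had a median log2 difference of 0.47 in G-K562, and the 102 such genes in B-K562 had a median of -0.02. NPC1, its membrane partner, fell by 0.71 in B-K562, and its difference in G-K562 was 0.19 (adjusted p = 0.084).

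ABCA1 (Entrez 19), which loads cholesterol onto apolipoproteins, was at 6, 5 and 10 in V-K562, 7, 4 and 4 in B-K562 and 35, 34 and 33 in G-K562. ABCG1 (Entrez 9619), which passes it to lipoprotein particles, was at 6, 2 and 4, then 2, 1 and 3, then 23, 23 and 32. Both were thus scarce in every line, and the G-K562 libraries lay above all the others. Summed over libraries, ABCA1 was 4.86 times higher in G-K562 than in V-K562 (exact 95% interval 3.02 to 8.18), and the sums of 78 and 13 for ABCG1 gave an interval of 3.31 to 11.8 for their ratio, both for counting error only. On the log2 scale the limma-trend differences were 2.18 ± 0.29 (SE, adjusted p = 4.5e-05) and 2.41 ± 0.37 (SE, adjusted p = 1.4e-04). Both genes passed the filter on low values only through the G-K562 libraries. The filter thus set their direction, and the p-values are no evidence for it. B-K562 against V-K562 was not tested for these genes, and the 95% intervals for the ratio of the sums ran from 0.343 to 1.45 for ABCA1 and from 0.154 to 1.44 for ABCG1.

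STARD4 (Entrez 134429), a cytosolic sterol carrier and SREBP target, fell in both BASP1 lines. It was at 4212, 3912 and 3746 in V-K562, 1372, 1207 and 1427 in B-K562 and 1634, 1943 and 1517 in G-K562. The fall was 2.97-fold in B-K562 (log2 difference -1.57 ± 0.07 SE, adjusted p = 1.7e-10) and 2.38-fold in G-K562 (-1.25 ± 0.09 SE, adjusted p = 2.1e-07). SOAT1, which esterifies cholesterol for storage, rose by 0.25 in B-K562 and 0.87 in G-K562. STARD3, a late endosomal sterol transporter, rose by 0.12 and 0.41, and MYLIP, a ubiquitin ligase that turns over lipoprotein receptors and is an LXR target, fell by 0.35 and 0.28. LPIN1, a phosphatidate phosphatase, rose by 0.26 in G-K562, and its difference in B-K562 was 0.01 (adjusted p = 0.82).

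Compared per kilobase of merged exon, with all lines on the scale of the table that holds G-K562, FDFT1 and FDPS were the most abundant of the 32 transcripts in V-K562, at 4543 ± 284 and 4477 ± 128 (SD, n = 3), a difference smaller than the spread between libraries. In G-K562 NPC2 (3014 ± 116, SD, n = 3) and FDPS (2980 ± 202, SD, n = 3) led, again closer than their spread. ABCA1 and ABCG1 were the least abundant in every line, with ABCA1 at 3.12 ± 0.09 (SD, n = 3) in G-K562.

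The direct comparison asked how the G-K562 line differed from the B-K562 line. Of the 32 genes, 13 were lower and 12 higher in the line with BASP1-G2A, where 40.5% and 38.1% of all genes tested were, and without ABCA1 and ABCG1 13 were lower and 10 higher of 30. All 13 lower genes were synthesis enzymes, 6 of which fell by at least 2-fold (12.5% of all genes tested): HMGCS1 at -2.22 ± 0.07 (SE), SQLE at -1.43 ± 0.07, ACAT2 at -1.26 ± 0.06, EBP at -1.17 ± 0.05, DHCR7 at -1.04 ± 0.07 and MVK at -1.04 ± 0.06 on the log2 scale. The largest adjusted p among these 6 was 3.6e-09. TM7SF2 and HSD17B7 were the 2 enzymes higher in G-K562, by 0.72 and 0.41, and the other 3, PMVK, FDFT1 and SC5D, did not pass. The median of the 18 enzymes was -0.68, against -0.02 for all genes tested. HMGCS1 lies among 59 genes with a local median of -0.63, and IDI1, at -0.73, among 34 with a local median of -0.79.

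The transport genes went the other way. ABCA1 and ABCG1 were again tested only because the G-K562 libraries carried them past the filter on low values, so their direction was set by the filter. Of the other 6, 5 were higher with BASP1-G2A than with wild-type BASP1, and MYLIP did not pass (0.07, adjusted p = 0.21), with a median log2 difference of 0.47. Of these 6, NPC2 was the 1 gene that rose by at least 2-fold (17.4% of all genes tested rose as much). NPC2 was 6.02-fold higher (log2 difference 2.59 ± 0.07 SE, adjusted p = 5.9e-13), against a local median of 0.49 over 107 genes. NPC1 was higher by 0.90 ± 0.08 (SE, adjusted p = 1.5e-07), though its exons overlap C18orf8 on the other strand over 183 bases. For SREBP pathway control, SREBF1 was higher by 0.74 ± 0.05 (SE, adjusted p = 3e-09) and SREBF2 by 0.20 ± 0.07 (SE, adjusted p = 0.023), the latter call being lost without G-K562 replicate 1 (adjusted p = 0.091), B-K562 replicate 1 (0.058) or B-K562 replicate 2 (0.071). SCAP, INSIG1 and INSIG2 did not pass, with log2 differences of -0.03, 0.05 and 0.13 and standard errors of 0.07, 0.07 and 0.09.

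Related pathways were described by lists of other genes, whose counts are to be read against the shares of all genes tested, 37.2% lower and 38.6% higher in B-K562 and 33.3% and 33.5% in G-K562. Of 12 fatty acid synthesis genes, 6 were lower and 6 higher in B-K562 and 6 were lower and 1 higher in G-K562, with medians of 0.02 and -0.16. FASN, the fatty acid synthase, rose by 0.60 in B-K562 and fell by 0.49 in G-K562, and ACSS2, an acetyl-CoA synthetase, fell by 1.48 and 0.86 on the log2 scale. Of 8 genes of SREBP processing and degradation, 3 were lower and 4 higher in B-K562, and 2 were lower and 6 higher in G-K562, with medians of 0.13 and 0.34. NFYA, NFYB, NFYC and SP1, the 4 DNA-binding partners of SREBP in the same list, were 2 lower and 2 higher in B-K562 and 3 lower and 1 higher in G-K562. MBTPS1, the protease that makes the first cut in SREBP, rose by 1.18 ± 0.05 (SE) in G-K562 and 0.15 ± 0.04 (SE) in B-K562. Of 11 genes of the isoprenoid branch, which also starts from mevalonate, 10 were higher and 1 lower in B-K562, and 4 were higher and 4 lower in G-K562, with medians of 0.52 and 0.11. Of 14 sterol-binding and transfer proteins, 6 were lower and 5 higher of 11 tested in B-K562, and 6 were lower and 2 higher of 12 tested in G-K562, with medians of -0.27 and -0.19. Of 6 oxysterol receptor genes and partners, 1 was lower and 4 higher in B-K562 and 3 were higher in G-K562, where the LXR genes NR1H2 and NR1H3 rose by 0.28 and 0.34. Between G-K562 and B-K562 the medians of these 5 lists, in the same order and with the DNA-binding partners counted in the second, were -0.46, 0.08, -0.60, -0.01 and 0.12.

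ATAC-seq measures how open chromatin is, here as the highest pileup of tags at a peak summit within each merged region. For 28 of the 32 genes a region had its summit within 1 kb of the outermost RefSeq start. None did for FDFT1, SCAP, ABCA1 and LPIN1. FDFT1 (chr8:11802234-11802978), SCAP (chr3:47475471-47476195) and LPIN1 (chr2:11746371-11746856) had regions at other annotated starts inside the gene. Those were not counted as start regions. With 1 scaling factor per library, the start regions of the 28 genes were more open in the BASP1 lines for many genes whose transcripts fell. Most of those calls were lost when libraries were scaled within bins of GC content, a choice made after seeing the data. In B-K562 14 of 27 start regions tested were more open than in the control, where 17.7% of all regions at protein-coding starts were higher and 4.37% lower, and the other 13 did not pass. In G-K562 18 of 28 were higher and 1 lower, where 35.9% and 6.68% were, and 1 of the 18, ABCG1, was tested only because peaks were called in G-K562. The median log2 difference was 0.36 in B-K562 and 0.43 in G-K562, beside 0.21 and 0.30 for all protein-coding start regions. Of the genes with a lower transcript in G-K562 and a start region that was tested, 13 had a higher start region, 1 a lower one and 5 did not pass (1 further gene, FDFT1, had no such region). Among other genes with lower transcripts in G-K562, 33.0% of 3804 had a higher start region and 8.89% a lower one. Within GC bins 4 of those 19 start regions were higher (MVD, FDPS, LSS and NSDHL), 3 lower and 12 did not pass, and of the 3804 other genes 13.1% had a higher and 15.1% a lower one.

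HMGCS1 shows the contrast. The region over its start (chr5:43313014-43313948) had summit pileups of 235, 224 and 227 in V-K562, 403, 380 and 378 in B-K562 and 379, 372 and 468 in G-K562, as deposited. After scaling the differences were 0.60 (adjusted p = 0.0021) in B-K562 and 0.47 (adjusted p = 0.0054) in G-K562, the line in which its transcript was 4.10-fold lower. SQLE was higher by 0.66 in G-K562 (adjusted p = 0.0091), from pileups of 120, 176 and 170 in V-K562 to 318, 324 and 290. MSMO1 (chr4:165327203-165327886) was at 264, 266 and 251, then 351, 342 and 310, then 319, 317 and 282, with scaled log2 differences of 0.21 (adjusted p = 0.081) in B-K562 and -0.12 (adjusted p = 0.29) in G-K562. EBP was the start region that was lower in G-K562 against V-K562, at 136, 123 and 136 against 150, 121 and 136 before scaling and by -0.39 after it (adjusted p = 0.026), a call that was lost when any library but V-K562 replicate 2 was left out (adjusted p = 0.054 to 0.089).

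Of the other start regions at genes with full values, ACAT2, MVK, MVD and DHCR7 passed in both lines, with log2 differences between 0.34 and 0.72 in B-K562 and between 0.37 and 0.69 in G-K562. SREBF1, INSIG1 and STARD4 also passed in both, at 0.65, 0.65 and 0.37 in B-K562 and 0.58, 0.69 and 0.39 in G-K562. SREBF2 and INSIG2 passed in G-K562 only, at 0.44 and 0.41, and whether they differed between the BASP1 lines did not pass the test (adjusted p = 0.085 and 0.39). IDI1, CYP51A1 and HSD17B7 passed in neither. Several of these calls were lost with fewer libraries, while the differences kept their direction. In B-K562 the call at DHCR7 was lost when any of the 6 libraries was left out (log2 difference 0.28 to 0.40, adjusted p = 0.062 to 0.13), that at SREBF1 without any but V-K562 replicate 1 (adjusted p = 0.057 to 0.070), that at STARD4 without any but V-K562 replicate 3 (0.063 to 0.10) and that at INSIG1 without B-K562 replicate 2 or 3 or V-K562 replicate 1 or 3 (0.054 to 0.079). MVK lost its call in B-K562 without B-K562 replicate 2 (0.051) or V-K562 replicate 3 (0.052), and ACAT2 without B-K562 replicate 3 (0.051). Over the 6 omissions the log2 difference in B-K562 ran from 0.51 to 0.83 for SREBF1, from 0.29 to 0.47 for STARD4 and from 0.45 to 0.79 for INSIG1. In G-K562 SREBF1 lost its call without G-K562 replicate 2 or 3 or V-K562 replicate 2 or 3 (0.054 to 0.092), and STARD4 without G-K562 replicate 3 or V-K562 replicate 1 or 2 (0.059 to 0.061). Some start regions also lie within 1 kb of another gene's start, among them those of ACAT2 (SOD2), MVK (MMAB), IDI1 (WDR37) and NSDHL (CETN2). Such regions may belong to either gene. The start of NPC2 (chr14:74493153-74493907, shared with ISCA2) was at 139, 147 and 158 in V-K562, 214, 208 and 219 in B-K562 and 372, 400 and 437 in G-K562. It was higher by 0.38 in B-K562, where the transcript fell, and by 1.09 in G-K562, where the 105 other start regions within 10 Mb had a median of 0.69. The call in B-K562 was lost within GC bins (0.17, adjusted p = 0.17) and with mean pileups (adjusted p = 0.066). A peak at the start of ABCG1 (chr21:42199450-42199751) was called in the G-K562 libraries alone, with pileups of 42, 38 and 55. The other 6 libraries had no called peak there, were set to the floor of 17 and may have held tags below the calling threshold, so the fitted difference of 1.16 is no measurement of size.

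**Figure D3:**
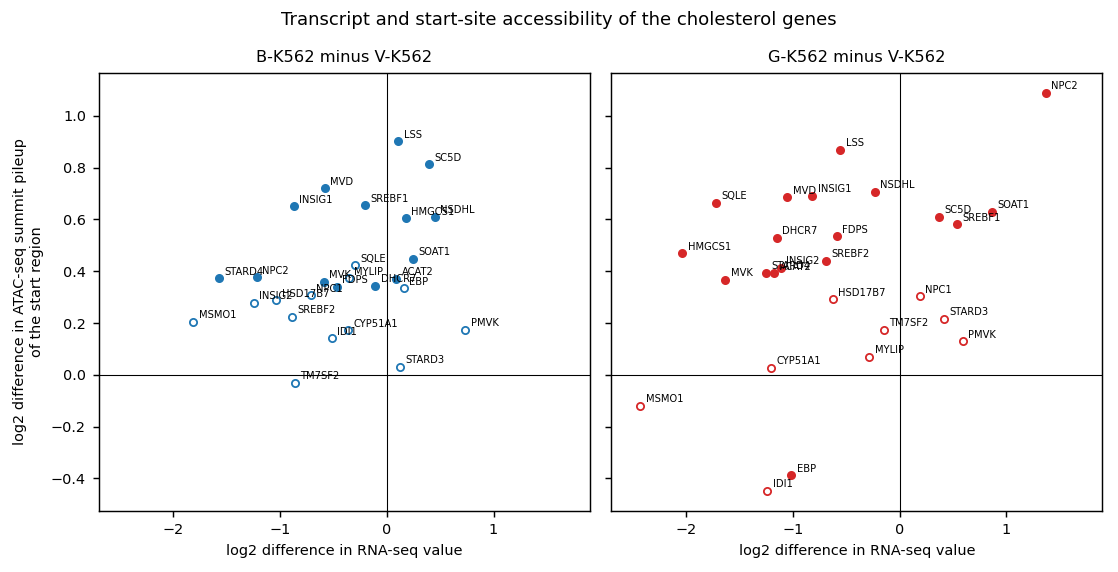
Log2 difference in RNA-seq value (x axis) against log2 difference in scaled summit pileup of the start region (y axis) for B-K562 (left) and G-K562 (right), each minus V-K562, with filled points where the start region passed an adjusted p of 0.05. ABCG1 is not drawn. In G-K562 HMGCS1, SQLE and MVK sit at upper left, with lower transcripts and higher start regions, MSMO1, IDI1 and EBP lie below 0 and NPC2 is high on both axes.

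The height of these differences depended on how libraries were scaled. Start regions are rich in G and C (55.2% to 74.8% for these genes, except 41.7% at ABCG1). When libraries were scaled within 20 bins of GC content, 6 of 27 start regions were higher in B-K562 and the other 21 did not pass, where 6.67% of all start regions were higher and 4.65% lower. In G-K562 7 were higher, 3 lower and 18 did not pass, where 17.0% were higher and 9.55% lower, so the 3 lower of 28 lie near that share. The medians became 0.17 in both lines, beside 0.06 and 0.09 for all protein-coding start regions. HMGCS1 then stood at 0.46 (adjusted p = 0.0057) in B-K562 and 0.27 (adjusted p = 0.053) in G-K562. The start regions that were lower in G-K562 under this scaling were those of IDI1 at -0.80, EBP at -0.52 and MSMO1 at -0.42 (adjusted p = 0.026, 0.0094 and 0.011). NPC2 stayed higher in G-K562 at 0.78 (adjusted p = 5.7e-04), beside a median of 0.52 for its neighbours, but was no longer called in B-K562 (0.17, adjusted p = 0.17).

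**Figure D4:**
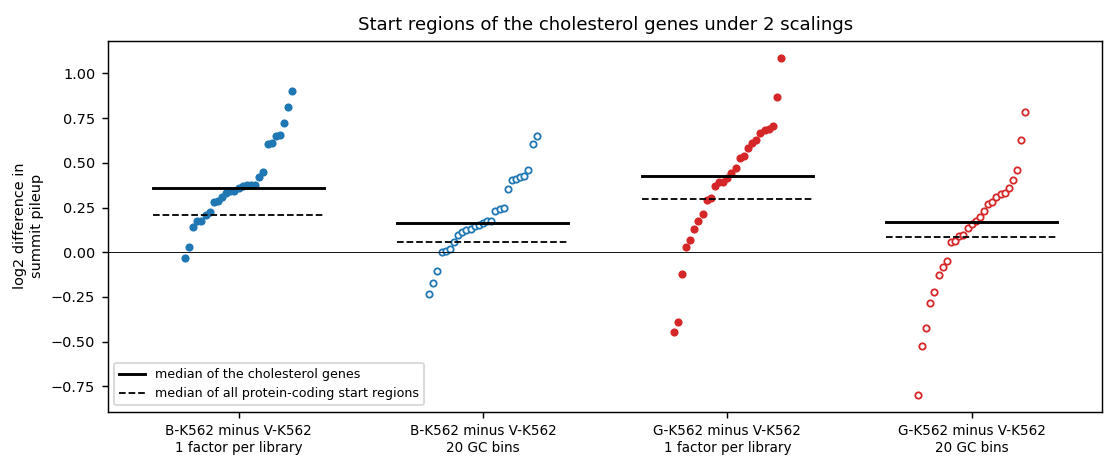
Log2 difference in summit pileup (y axis) of the start region of each gene, ordered by value, in B-K562 and G-K562 against V-K562 (x axis), with 1 factor per library (filled) and within 20 GC bins (open). Solid lines are the medians of the cholesterol genes (ABCG1 counted but not drawn) and dashed lines those of all protein-coding start regions. The medians of 0.36 and 0.43 become 0.17 and 0.17.

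The promoters of HMGCS1, MSMO1, SREBF2 and NPC2 are shown because their transcripts and start regions carry the contrasts above. They run from 250 bases before to 50 after the start in RefSeq (GRCh38.p14), at chr5:43313363-43313662 (minus strand), chr4:165327419-165327718 (plus strand), chr22:41832855-41833154 (plus strand) and chr14:74493463-74493762 (minus strand), each within the accessible region given for its gene or, for SREBF2, within chr22:41832496-41833244. Capitals mark TCACNCCAC, a sterol regulatory element, and CCAAT, the box bound by NF-Y, which reads ATTGG on the other strand.
HMGCS1: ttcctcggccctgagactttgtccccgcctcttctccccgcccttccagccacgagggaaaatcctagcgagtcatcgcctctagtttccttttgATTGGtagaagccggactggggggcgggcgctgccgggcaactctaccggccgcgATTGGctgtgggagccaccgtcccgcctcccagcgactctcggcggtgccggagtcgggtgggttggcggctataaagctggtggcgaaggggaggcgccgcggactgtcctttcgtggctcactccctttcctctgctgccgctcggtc
MSMO1: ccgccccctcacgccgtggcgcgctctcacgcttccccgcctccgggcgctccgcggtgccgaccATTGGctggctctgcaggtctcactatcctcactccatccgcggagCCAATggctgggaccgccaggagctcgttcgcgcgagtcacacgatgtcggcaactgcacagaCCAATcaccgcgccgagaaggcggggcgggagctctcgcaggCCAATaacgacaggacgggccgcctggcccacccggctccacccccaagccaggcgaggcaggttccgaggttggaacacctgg
SREBF2: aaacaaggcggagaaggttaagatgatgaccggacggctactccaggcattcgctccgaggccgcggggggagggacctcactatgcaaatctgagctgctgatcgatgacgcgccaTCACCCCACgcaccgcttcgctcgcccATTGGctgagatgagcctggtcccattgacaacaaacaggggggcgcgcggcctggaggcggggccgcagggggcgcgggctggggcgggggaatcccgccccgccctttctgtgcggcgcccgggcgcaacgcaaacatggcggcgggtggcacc
NPC2: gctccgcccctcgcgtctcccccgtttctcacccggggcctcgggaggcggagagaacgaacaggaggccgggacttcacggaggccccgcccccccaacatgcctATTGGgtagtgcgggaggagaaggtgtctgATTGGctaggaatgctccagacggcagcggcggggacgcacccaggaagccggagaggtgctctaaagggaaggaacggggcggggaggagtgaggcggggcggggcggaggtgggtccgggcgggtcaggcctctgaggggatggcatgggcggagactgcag
RefSeq promoters were matched for 28 of the 32 genes, all but ACAT2, FDFT1, SQLE and ABCG1, whose promoters were not searched. TCACNCCAC on either strand was in 1 of the 28, that of SREBF2 as TCACCCCAC, and in 1.15% of all 27305 promoters. CCAAT on either strand was in 18 of 28 (64.3%), 12 of them among 15 synthesis enzymes, against 35.7% of all promoters, and MSMO1 held 4 copies and HMGCS1 and NPC2 2 each. The letters GGGCGG, which Sp1 binds, were in 27 of 28 (96.4%) against 44.6% of all promoters. Overlaps between the 3 strings were not removed, a match is not a measured site, and the share was not compared with promoters of like GC content.

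Over all regions within 5 kb of the genes, 10 of 95 tested were lower and 20 higher in B-K562 (16.6% and 8.57% of all regions), and 9 of 92 were lower and 32 higher in G-K562 (26.0% and 15.9%). Between G-K562 and B-K562 9 of 98 were lower and 11 higher (15.6% and 12.3%). Of the 28 start regions 2 were lower, at EBP and MSMO1, and 2 higher, at NPC2 and ABCG1 (8.8% and 13.6% of all start regions). The start region of ABCG1 and a region upstream of it had peaks in G-K562 alone. Both were tested only through that line, so their direction was set by the filter. They are 2 of the 32 regions higher against V-K562 and 2 of the 11 higher against B-K562. In B-K562 against V-K562, 2 of the 10 lower regions had no peak in B-K562 and 1 of the 20 higher had none in V-K562. Changes of at least 2-fold against V-K562 were made by 3 regions lower and 1 higher in B-K562 (6.16% and 1.53% of all regions) and by 4 lower and 3 higher in G-K562 (13.1% and 2.86%). Between the BASP1 lines 3 were lower and 2 higher (8.6% and 4.28%). The start region of ABCG1 is counted among the higher ones in G-K562 against V-K562 and between the BASP1 lines.

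Several of these regions lay inside or behind the genes and were lower in G-K562. An intronic region of SREBF2 (chr22:41845818-41846351) had pileups of 104, 100 and 95 in V-K562, 88, 106 and 89 in B-K562 and 71, 42 and 48 in G-K562. The G-K562 libraries were lowest, with log2 differences of -1.26 from V-K562 (adjusted p = 0.0020) and -1.05 from B-K562 (adjusted p = 0.0020). The start region of the gene was higher than in V-K562 (0.44, adjusted p = 0.0055) but did not pass against B-K562 (adjusted p = 0.085). Within GC bins the start region did not pass against V-K562 either (0.14, adjusted p = 0.21). The intronic region then stood at -0.89 from V-K562 (adjusted p = 0.0066) and -0.90 from B-K562 (adjusted p = 0.0029). An intronic region of NSDHL (chrX:152843808-152844275) was at 50, 58 and 45, then 68, 62 and 44, then 32, 24 and 23, with log2 differences of -1.28 from V-K562 and -1.31 from B-K562. Downstream of EBP (chrX:48531597-48531983) the pileups were 35, 30 and 28, then 39, 44 and 31, then 22, 19 and 21, with a difference of -1.04 between G-K562 and B-K562. A region downstream of HMGCS1 (chr5:43281719-43282570) had peaks of 33, 35 and 38 in V-K562, 27, 41 and 36 in B-K562 and none in G-K562, so its fitted difference of -1.18 from V-K562 rests on the floor. A region downstream of DHCR7 (chr11:71433475-71433888) was lower in both BASP1 lines, with peaks of 22, 40 and 49 in V-K562 and a single peak each in B-K562 (23) and G-K562 (21). Its differences of -0.97 (adjusted p = 0.039) and -1.15 (adjusted p = 0.013) also rest on the floor, and the difference between the BASP1 lines was -0.11 (adjusted p = 0.82).

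Of the 4 regions that changed by at least 2-fold in B-K562, 3 were not called in G-K562 against V-K562 and 1, downstream of STARD3, was also higher there by at least 2-fold. An intronic region of NPC1 (chr18:23529666-23529996) was at 43, 48 and 38 in V-K562 and 55, 50 and 44 in G-K562, and in B-K562 a peak was called in 1 library, at 31. An intronic region of LPIN1 (chr2:11738507-11738864) was at 43, 47 and 48 in V-K562, 31 and 25 in 2 B-K562 libraries and 50, 39 and 61 in G-K562. Downstream of FDPS, at the start of RUSC1 (chr1:155325128-155325482), pileups were 54, 52 and 63 in V-K562, no peak was called in B-K562, and 2 G-K562 libraries had 66 and 90. Downstream of STARD3, at the start of PNMT (chr17:39667457-39667896), both BASP1 lines were higher, with a peak of 50 in 1 V-K562 library, 113, 121 and 129 in B-K562 and 97, 88 and 84 in G-K562. The last 2 regions lie at the starts of other genes and may belong to those. In all 4 regions a line compared had libraries without a called peak, set to the floor, so the sizes of these differences are not measured. Within GC bins the region of NPC1 was no longer called in B-K562 (-0.92, adjusted p = 0.051). Those of LPIN1 (-0.98, adjusted p = 0.028), FDPS (-1.84, adjusted p = 0.0021) and STARD3 (1.99, adjusted p = 0.015) still were. The call for STARD3 in G-K562 was lost (adjusted p = 0.062).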

How the data were processed

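Both assays had 3 libraries per line. The authors aligned RNA-seq reads to GRCh38 with STAR, took gene counts on RefSeq models with Subread and divided them by DESeq2 size factors. The signal values deposited for RNA-seq are the quotients, rounded to whole numbers, and steps in the values gave estimates of 28916000 to 37039200 reads on genes per library. For ATAC-seq, BWA-MEM alignments were thinned by the authors to equal tags, MACS2 peaks were called in each library, and the deposited signal is the summit pileup and its interval mean, with 47111 to 55570 peaks per library. The gene length, another deposited column, gave values per kilobase. The authors' own columns of means, fold changes and p-values were not used.

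Genes that reached 10 in 3 or more of the libraries compared were tested with limma-trend (limma 3.58.1, R 4.3.3) on log2(value + 1), two-sided, with Benjamini-Hochberg adjustment over all genes, 14958, 15271 and 15521 in the 3 comparisons. Differences on this scale are understated for low genes. For G-K562 against B-K562 the B-K562 values were multiplied by 1.02 (mean ratio of the shared V-K562 values) and 9 libraries were fitted. Peak intervals that overlapped were merged, scaled by a trimmed mean (30% of log ratios, 5% of mean values) with factors of 0.865 to 1.18, floored at 17 and tested likewise. A library without a called peak is at the floor, not at 0. A region belonged to a gene if within 5 kb of it. Promoters came from RefSeq sequences, and motifs were sought in Python 3.11.15. Scripts were tested on simulated data.

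The genes and lists were chosen with earlier results of these data known. The DNA-binding partners of SREBP were counted apart from the processing genes after their values were seen. Full values are given for genes called with at least a 2-fold change in any RNA-seq comparison and for SREBF1, SREBF2, SCAP, INSIG1 and INSIG2, and regions are named if called with at least a 2-fold change or at the start of such a gene. Marker lists of 3 T cell, 3 B cell, 3 monocyte, 5 fibroblast and 3 epithelial genes were summed in each library. These sums ran over the 3 lines from 184 to 578, 47 to 128, 1289 to 4322, 900 to 1760 and 1132 to 1887.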

Additional observations from a re-analysis of the deposited data

Results flagged for a closer look

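For 5 genes the difference from V-K562 passed the test in opposite directions in the BASP1 lines, and the difference between G-K562 and B-K562 was tested itself (limma-trend, all genes). On the log2 scale, G-K562 minus B-K562 was -2.22 for HMGCS1, -0.69 for NSDHL, -1.17 for EBP, 0.74 for SREBF1 and 2.59 for NPC2. The rise of HMGCS1 in B-K562 was small (0.18) and was lost under other settings, and that of EBP (0.16) was lost after quantile normalization. Both lines were compared with the same V-K562 libraries.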

How the results depend on the processing

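Of the RNA-seq counts and medians, quantile normalization moved the genes higher in B-K562 from 8 to 5 and their median from -0.36 to -0.51. A value of at least 10 in every library removed ABCA1 and ABCG1, left 1 gene higher by 2-fold both against V-K562 and between G-K562 and B-K562, and moved the median in G-K562 from -0.61 to -0.66. The other pseudocounts and filters, trimmed-mean rescaling, limma without trend and limma-voom left these values within 1.5 times the main count or within the spread between libraries. With each library left out, the median ran from -0.42 to -0.32 in B-K562 and from -0.65 to -0.58 in G-K562.

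ATAC-seq values moved more. With equal tags as the only scaling, 6 regions were lower and 39 higher in B-K562, 5 lower and 49 higher in G-K562 and 33 higher in G-K562 against B-K562, with start medians of 0.51, 0.78 and 0.21. MSMO1 then passed at 0.23 against V-K562 and MVK at 0.21 between the BASP1 lines, both reversed from the main value. Within GC bins the counts were 4 lower and 10 higher in B-K562 and 18 higher in G-K562, and the start medians 0.17, 0.17 and -0.071. Mean pileups gave a B-K562 start median of 0.32 and 7 regions higher in G-K562 against B-K562. A peak in every library gave 5 lower in B-K562 and 5 higher between the BASP1 lines. A summit pileup of at least 30 gave start medians of 0.30 in B-K562 and 0.34 in G-K562. A 10 kb window gave 14 lower in G-K562, and regions within 1 kb of a start 1 lower in B-K562, 2 lower in G-K562, and 3 lower and 4 higher between the BASP1 lines, as fewer or more regions were counted. With each library left out, B-K562 had 3 to 6 regions lower and 13 to 15 higher (start median 0.32 to 0.38), G-K562 5 to 10 lower, and the BASP1 lines differed by 4 to 12 higher (start median -0.027 to 0.041). Leaving out any library took the lower regions in B-K562 to 6 or fewer, without B-K562 replicate 2 or V-K562 replicate 2 the higher ones fell to 13, without G-K562 replicate 3 the lower ones in G-K562 to 5, and without any B-K562 or G-K562 library the higher ones between the BASP1 lines to 7 or fewer. Apart from the windows, which change the regions counted, the cause was not tested.

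Same-numbered libraries did not correlate throughout (RNA-seq deviations of V-K562 and G-K562 gave -0.26, -0.19 and 0.38), so the numbers were not taken as pairs. In ATAC-seq the same-numbered correlations were weak but positive, from 0.0071 to 0.12. For replicate 1 each exceeded the highest with another number (-0.048, -0.038 and -0.033). For replicate 2 of V-K562 and B-K562 and replicate 3 of B-K562 and G-K562 another number gave a higher value. With a replicate block, 19 genes were lower and 9 higher in B-K562, 20 lower and 10 higher in G-K562, and 13 lower and 12 higher between the BASP1 lines. Regions with the replicate block were 8 lower and 23 higher in B-K562, 10 and 32 in G-K562 and 10 and 9 between the BASP1 lines. Pileups near the floor of 17 limit what could be called.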
